A study of Mus musculus with 16 samples.

Results

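Collagen genes were described across 12 peak lists of 3 histone marks in sorted mouse skin epithelial cells. Members were the protein-coding genes of the GENCODE vM1 annotation of mm9 whose symbol is Col, a number, the letter a and a number, which gave 43 of the 22367 protein-coding genes annotated on the assembled nuclear chromosomes. They fell into 11 fibrillar genes, 6 basement membrane network genes (type IV), 4 basement membrane zone genes, 3 other transmembrane genes, 6 beaded filament genes (type VI), 3 short-chain network genes, 9 genes whose products sit on fibrils (FACIT) and Col28a1. EA-HFSCs were bulge hair follicle stem cells sorted as CD34+ and α6-integrin+ at postnatal day (PD) 22 to 25, in early anagen, and LC-HFSCs were the same gate at PD 38 to 44, in late catagen. nEA-HFSCs and nLC-HFSCs were the CD34- and α6-integrin+ cells of the same ages, described by the study as mostly epidermis and lower outer root sheath, so that they mix several epithelial compartments. All mice were wild-type CD1 x FVB, male per the labels, and cells of many mice were pooled. ChIP-seq measured H3K4me3, H3K27me3 and H3K9me3, with IgG of each population as background. The reads of replicate pools were joined before peaks were called, which left 1 list for each of the 12 combinations. No difference between populations therefore has a replicate check, no test was possible, and shares are read beside the same share over all protein-coding genes.

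Collagens are trimeric proteins of the extracellular matrix. Epithelial cells secrete type IV chains, which assemble into the network of the basement membrane, and carry type XVII in the hemidesmosomes that fix basal keratinocytes to it, while type VII forms the anchoring fibrils beneath. Fibrillar collagens such as types I, III and V are products mainly of dermal fibroblasts, and types II, IX and XI are known from cartilage. H3K4me3 is found at promoters of active or poised genes, H3K27me3 is laid down by Polycomb complexes at silenced developmental genes, and H3K9me3 is known from heterochromatin. The presence of a mark is not a measure of expression.

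A mark was assigned to a gene if any of its annotated transcript starts had a peak no further than 3000 bp away, and having or lacking a mark refers to these starts throughout. Each peak carries a score, 10 times the negative log10 of its p-value, which depends on depth and background and was compared only within its own list, as the percent of the list's peaks with a lower score. The lists held 14718 to 24498 peaks for H3K4me3, 1909 to 25534 for H3K27me3 and 1414 to 42277 for H3K9me3, and the LC-HFSC list was the shortest for each mark. The depth behind a peak is not given in the lists, and the study states that more reads were used for LC-HFSCs than for EA-HFSCs. It also states that peak detection neared saturation for H3K4me3, while reads were too few for this with H3K27me3 and H3K9me3. Replicates were pooled for that reason. H3K4me3 peaks stood at 4 of 4 genes of sorted epithelium (Krt5, Krt14, Itga6, Itgb4) in every population, and Cd34 had H3K4me3 only in the HFSC lists and H3K27me3 only in the non-HFSC lists. Of 8 dermal fibroblast genes, 5 had H3K4me3 in EA-HFSCs, 3 in LC-HFSCs and 4 in each non-HFSC list, with Lum, Pdgfrb and Dpt at none and Dcn in EA-HFSCs only, and 0 of 3 leukocyte genes had it in any list. Of 3 endothelial genes, 1 (Kdr) had H3K4me3 in every list, and all 3 melanocyte genes had it except Dct in nLC-HFSCs. How far other cell types contributed to marks at fibrillar collagen genes was not tested.

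The promoters that the results turn on differ widely in CpG content, and their mm9 sequence is shown with every CG in capitals and the rest in lower case, 5′ to 3′ along the named gene. The type IV pair is shown because 1 peak covers both divergent starts, as the 22 bases in which the annotated genes overlap (chr8:11312805-11312826, plus strand). Col17a1 (chr19:47766555-47766834, minus strand) had the highest-scoring H3K4me3 in EA-HFSCs, Col5a1 (chr2:27741695-27741974, plus strand) had H3K4me3 in every population but LC-HFSCs, Col1a1 (chr11:94797288-94797567, plus strand) is the type I chain of dermis and bone, and Col13a1 (chr10:61441827-61442106, minus strand) had the highest-scoring H3K27me3 in EA-HFSCs. Col3a1 (chr1:45368133-45368412, plus strand) was added after its values were seen, because it had no peak in any list. Each of these 5 runs from 250 bases before the annotated 5′ end of the gene into its 30 initial bases.
Col4a1/Col4a2: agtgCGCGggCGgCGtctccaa
Col17a1: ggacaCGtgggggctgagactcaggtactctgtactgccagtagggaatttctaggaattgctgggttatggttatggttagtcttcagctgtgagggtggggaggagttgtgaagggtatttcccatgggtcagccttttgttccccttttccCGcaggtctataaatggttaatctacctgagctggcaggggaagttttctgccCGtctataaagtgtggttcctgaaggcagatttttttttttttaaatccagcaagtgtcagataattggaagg
Col5a1: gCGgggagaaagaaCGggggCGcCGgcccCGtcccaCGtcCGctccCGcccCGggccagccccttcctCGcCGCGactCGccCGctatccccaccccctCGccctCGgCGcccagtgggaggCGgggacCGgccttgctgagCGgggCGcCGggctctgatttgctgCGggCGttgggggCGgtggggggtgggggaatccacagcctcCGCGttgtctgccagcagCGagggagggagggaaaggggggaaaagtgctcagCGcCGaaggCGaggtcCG
Col1a1: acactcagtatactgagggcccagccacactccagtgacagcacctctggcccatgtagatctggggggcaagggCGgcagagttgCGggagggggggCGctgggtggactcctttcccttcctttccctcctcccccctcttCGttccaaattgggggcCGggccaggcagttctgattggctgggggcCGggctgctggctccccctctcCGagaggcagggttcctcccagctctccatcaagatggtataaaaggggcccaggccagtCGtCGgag
Col13a1: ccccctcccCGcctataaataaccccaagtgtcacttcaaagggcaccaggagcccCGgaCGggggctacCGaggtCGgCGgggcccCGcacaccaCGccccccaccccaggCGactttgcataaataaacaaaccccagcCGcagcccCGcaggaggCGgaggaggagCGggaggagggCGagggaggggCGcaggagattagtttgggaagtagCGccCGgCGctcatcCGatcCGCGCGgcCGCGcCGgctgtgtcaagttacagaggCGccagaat
Col3a1: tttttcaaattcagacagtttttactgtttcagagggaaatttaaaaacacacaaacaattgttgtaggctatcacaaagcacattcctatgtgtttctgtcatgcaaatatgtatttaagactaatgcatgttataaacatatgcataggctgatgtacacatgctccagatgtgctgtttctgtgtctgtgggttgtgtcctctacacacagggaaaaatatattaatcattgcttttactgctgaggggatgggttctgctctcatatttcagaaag

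The 280-base promoter of Col5a1 held 32 CG, that of Col13a1 26, that of Col1a1 9, that of Col17a1 3 and that of Col3a1 0, and the 22 bases of the type IV pair held 4. The letters GGGCGG, on either strand, occurred 2 times in Col5a1, 1 time in Col1a1 and in the type IV pair, and in 0 places of the other 3. The letters TATAAA, on either strand, occurred 2 times in Col17a1 and 1 time each in Col1a1, Col13a1 and Col3a1. In windows of the same 280 bases, GGGCGG was present in 24 of 43 collagen promoters (55.8%) against 42.2% of all promoters, and TATAAA in 6 of 43 (14.0%) against 13.0%. These are matches of letters only.

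H3K4me3 stood at 30 of 43 collagen genes in EA-HFSCs (69.8%, against 62.4% of all protein-coding genes), 22 in LC-HFSCs (51.2%, against 55.9%), 29 in nEA-HFSCs (67.4%, against 61.7%) and 23 in nLC-HFSCs (53.5%, against 58.8%). These shares lie near the background in each population. H3K27me3 stood at 16 in EA-HFSCs (37.2%, against 14.0%), 3 in LC-HFSCs (6.98%, against 3.73%), 27 in nEA-HFSCs (62.8%, against 16.8%) and 17 in nLC-HFSCs (39.5%, against 12.9%), above the background in EA-HFSCs and both non-HFSC lists, while the LC-HFSC share rests on 3 genes, and on 1 with a score of at least 100. H3K9me3 stood at 19 in EA-HFSCs (44.2%, against 47.9%), 0 in LC-HFSCs (against 0.505%), 3 in nEA-HFSCs (6.98%, against 4.14%) and 7 in nLC-HFSCs (16.3%, against 14.1%). H3K4me3 was present in all 4 populations at 18 collagen genes (41.9%, against 54.9% of all genes), and H3K27me3 at 3 (6.98%, against 3.56%), which were Col2a1, Col9a2 and Col13a1. No collagen gene had H3K9me3 in all 4 populations (against 0.335%). Genes without a mark in any list numbered 12 for H3K4me3 (against 35.9% of all genes), 15 for H3K27me3 (against 80.1%) and 21 for H3K9me3 (against 48.0%). Col3a1, Col10a1, Col20a1 and Col22a1 had no peak of any mark at a start in any list, as did 26.9% of all genes.

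**Figure D1:**
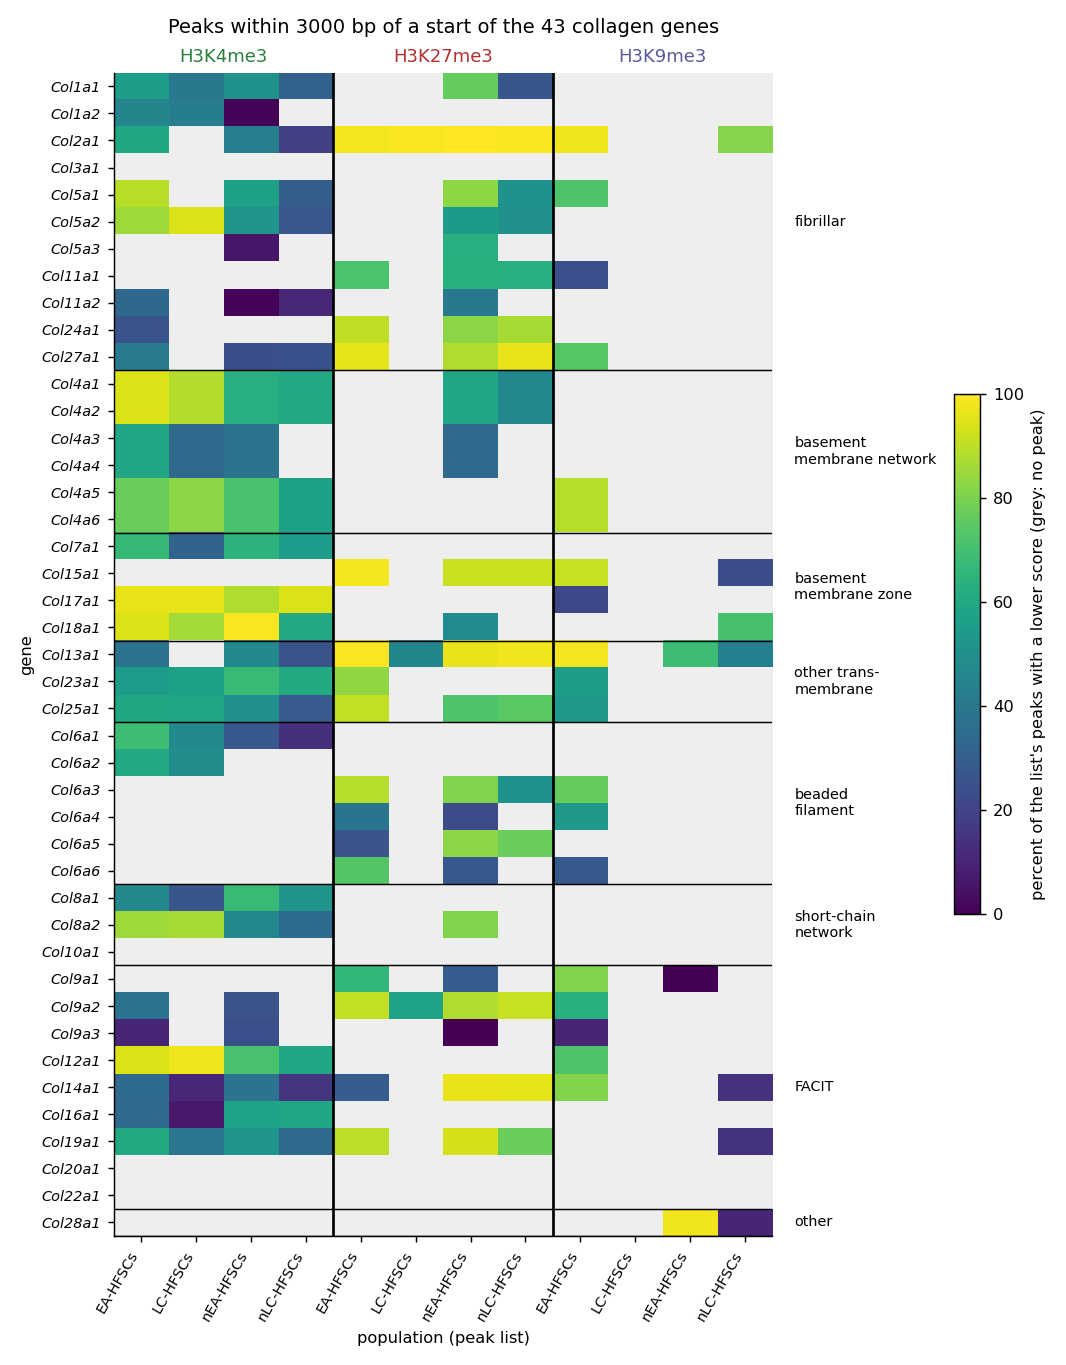
Peaks at the 43 collagen genes (rows, by class) in the 12 lists (columns, by mark and population), coloured by the percent of the list's peaks that score lower than the gene's highest-scoring peak, with grey for no peak. The LC-HFSC columns hold 22, 3 and 0 marked genes, and the type IV block is filled for H3K4me3 in both HFSC columns.

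The basement membrane genes carried H3K4me3 in HFSCs at both stages. H3K4me3 was at 9 of the 10 network and zone genes in EA-HFSCs, the same 9 in LC-HFSCs and in nEA-HFSCs, and 7 in nLC-HFSCs, against 62.4%, 55.9%, 61.7% and 58.8% of all genes, and Col15a1 lacked it in all 4 lists. H3K27me3 was at 1 of the 10 in EA-HFSCs (Col15a1), 0 in LC-HFSCs, 6 in nEA-HFSCs and 3 in nLC-HFSCs, against 14.0%, 3.73%, 16.8% and 12.9% of all genes. These genes are not independent, since the 6 type IV genes form 3 head-to-head pairs with starts 21 bp (Col4a1 and Col4a2), 72 bp (Col4a3 and Col4a4) and 1309 bp (Col4a5 and Col4a6) apart and share peaks.

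Col4a1 and Col4a2 encode the chains of the network found in nearly every basement membrane. Their shared H3K4me3 peak scored 2596 in EA-HFSCs (94.3% of the list lower), 526 in LC-HFSCs (88.5%), 1243 in nEA-HFSCs (62.6%) and 1115 in nLC-HFSCs (60.3%). It was 4575 bp wide in EA-HFSCs, 3591 bp in LC-HFSCs, 3021 bp in nEA-HFSCs and 2712 bp in nLC-HFSCs, and it covered the printed bases in each. The peak was thus present in all 4 populations, and its ranks in lists of different length do not measure a difference between them. H3K27me3 was in neither HFSC list at this start, and scored 98.6 in nEA-HFSCs, from -62 to 3881 bp of the Col4a1 start, and 66.5 in nLC-HFSCs, from -4050 to -2911 bp, on the Col4a2 side.

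Col4a3 and Col4a4, chains of the specialised basement membranes of kidney, cochlea and eye, shared H3K4me3 peaks with scores of 886 in EA-HFSCs (59.0% of the list lower), 156 in LC-HFSCs (34.5%) and 202 in nEA-HFSCs (38.5%), and had none in nLC-HFSCs. An H3K27me3 peak lay there in nEA-HFSCs only, with a score of 60.02 that ranked above 34.0% of its list. Col4a5 and Col4a6 on chromosome X each had an H3K4me3 peak of their own in all 4 lists. The peak over the Col4a5 start scored 1085 in EA-HFSCs, 447 in LC-HFSCs, 1826 in nEA-HFSCs and 970 in nLC-HFSCs. The peak over the Col4a6 start scored 1452, 72.0, 1131 and 953 in the same order. Neither gene had H3K27me3 at a start in any population.

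Col17a1 encodes the transmembrane collagen of hemidesmosomes, and its H3K4me3 peak had the highest score at a collagen gene in EA-HFSCs. It scored 3100 in EA-HFSCs, nEA-HFSCs and nLC-HFSCs, a value shared by 590, 2701 and 874 peaks of those lists, and 767 in LC-HFSCs, above 96.5% of the list. The peak reached from -1553 to 8877 bp of the 5′ end in EA-HFSCs, a width of 10431 bp against a median of 3103 bp over all genes with an H3K4me3 peak there. Its width was 8294 bp in LC-HFSCs, 8639 bp in nEA-HFSCs and 7605 bp in nLC-HFSCs. The CpG ratio (observed to expected CG within 500 bp of the 5′ end) at this broad peak was 0.27, below the median of 0.44 over collagen genes. Col17a1 had no H3K27me3 at a start in any list. An H3K9me3 peak of EA-HFSCs, with a score of 44.9, lay 1076 to 3460 bp into the gene, inside the H3K4me3 peak.

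Col7a1, which encodes the anchoring fibril collagen, had H3K4me3 scores of 1119 in EA-HFSCs (67.1% of the list lower), 145 in LC-HFSCs (31.8%), 1402 in nEA-HFSCs (64.8%) and 901 in nLC-HFSCs (54.8%), with neither of the other marks. Col18a1, whose product yields endostatin, had H3K4me3 at 3 separate starts in every list. Its highest-scoring peak lay not at the 5′ end but 51526 to 57386 bp into the gene, with scores of 2650 in EA-HFSCs, 492 in LC-HFSCs, 3111 in nEA-HFSCs and 1118 in nLC-HFSCs. The peak at the annotated 5′ end scored 1059, 255, 977 and 311 in the same order, lower than the internal peak of the same list each time.

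Col15a1, a basement membrane zone collagen related to Col18a1, was the only one of the 10 without H3K4me3 at a start in any list. It had instead an H3K27me3 domain over its 5′ end of 14139 bp in EA-HFSCs (score 1524, 98.8% of the list lower), 14593 bp in nEA-HFSCs (519, 91.9%) and 8186 bp in nLC-HFSCs (453, 92.0%). In LC-HFSCs the nearest H3K27me3 peak was 125574 bp away. The CpG ratio of this promoter was 0.76, close to those of Col4a1 (0.77) and Col4a2 (0.78). H3K9me3 lay near the 5′ end in EA-HFSCs (score 123) and at an internal start 95722 bp into the gene in nLC-HFSCs (43.6).

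**Figure D2:**
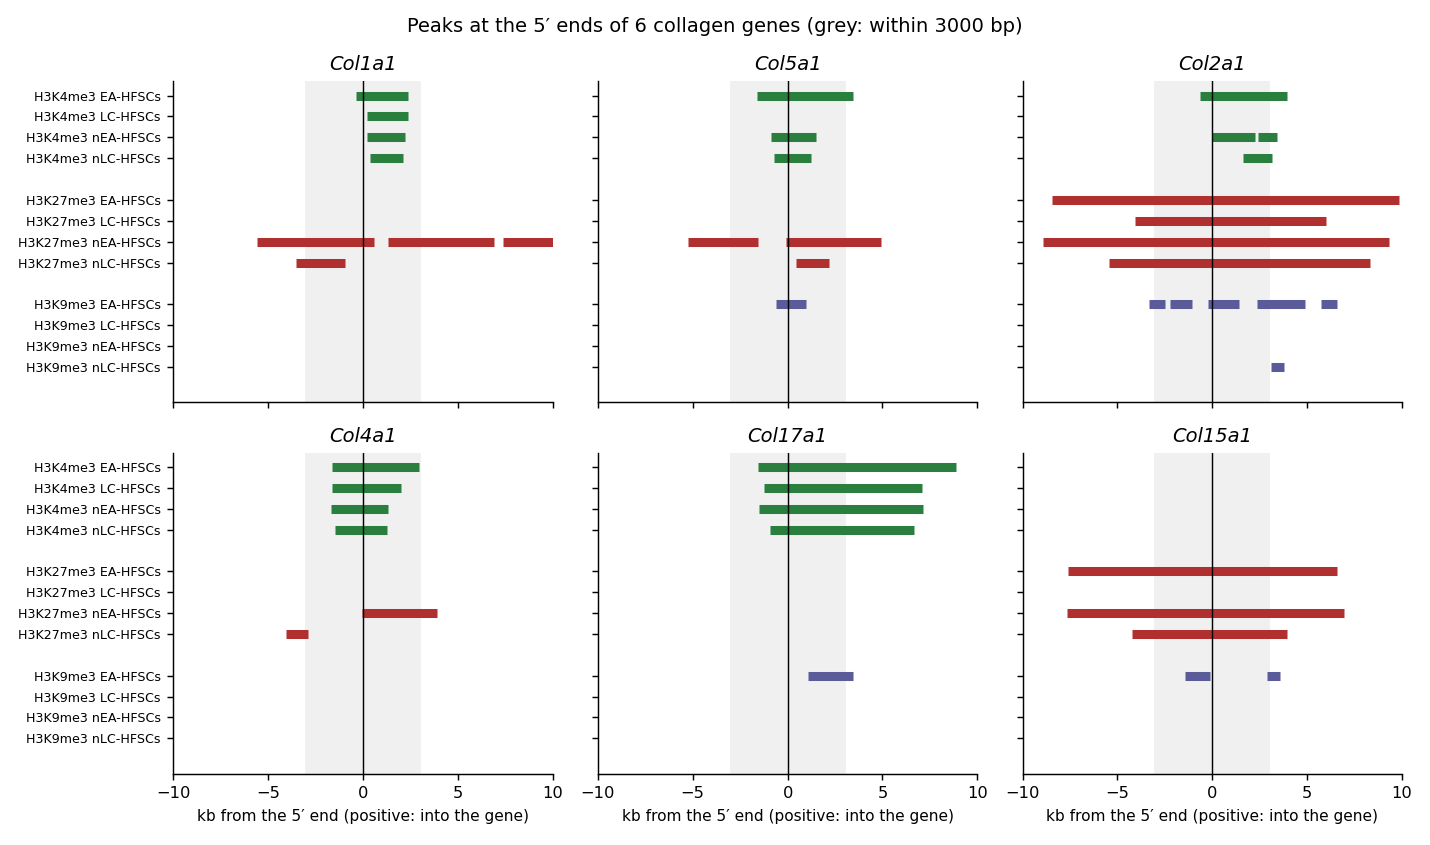
Peaks (bars) around the annotated 5′ ends of Col1a1, Col5a1, Col2a1, Col4a1, Col17a1 and Col15a1, in kb with positive values into the gene, 1 row for each list and colours for the marks, drawn to 10 kb to either side. Col5a1 has H3K4me3 bars in all populations but LC-HFSCs, and Col2a1 has an H3K27me3 bar over its start in all 4.

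Among the 11 fibrillar genes, H3K4me3 was at 8 in EA-HFSCs, 3 in LC-HFSCs, 8 in nEA-HFSCs and 6 in nLC-HFSCs, against 62.4%, 55.9%, 61.7% and 58.8% of all genes. The 3 in LC-HFSCs were Col1a1, Col1a2 and Col5a2. H3K27me3 was at 4 in EA-HFSCs (Col2a1, Col11a1, Col24a1, Col27a1), 1 in LC-HFSCs (Col2a1), 9 in nEA-HFSCs and 7 in nLC-HFSCs, against 14.0%, 3.73%, 16.8% and 12.9%. The genes outside the 9 were Col1a2 and Col3a1.

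Col1a1 and Col1a2 encode the chains of type I collagen, the main fibril of dermis and bone. H3K4me3 at Col1a1 scored 800 in EA-HFSCs (56.1% of the list lower), 181 in LC-HFSCs (40.3%), 499 in nEA-HFSCs (50.9%) and 191 in nLC-HFSCs (31.0%). At Col1a2 it scored 464 in EA-HFSCs (45.4%), 189 in LC-HFSCs (42.0%) and 50.9 in nEA-HFSCs (0.992%), with none in nLC-HFSCs. Type I collagen genes thus carried a middle-ranking H3K4me3 peak in both HFSC lists. Col1a2 had no H3K27me3 or H3K9me3 at a start in any list. Col1a1 had H3K27me3 in the non-HFSC lists only: 3 peaks with scores from 61.4 to 184 covered 59.8% of the gene's 16819 bp in nEA-HFSCs, and 1 peak with a score of 51.1 lay upstream in nLC-HFSCs. The nearest EA-HFSC peak of that mark was 37882 bp away. Col3a1, the type III chain that joins type I in dermal fibrils, had no H3K4me3 peak within 189444 bp of its 5′ end in any list.

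Type V collagen sets the diameter of type I fibrils. Col5a1 had an H3K4me3 peak of 5095 bp and a score of 2074 in EA-HFSCs (89.2% of the list lower), none in LC-HFSCs, where the nearest peak was 161127 bp away, and scores of 844 in nEA-HFSCs (57.1%) and 185 in nLC-HFSCs (30.4%). Of 6189 genes whose EA-HFSC peak stood above at least 75% of its list, 6157 had an LC-HFSC peak (99.5%), and Col5a1 was the exception among 10 such collagen genes. Col5a2, which encodes its partner chain, had H3K4me3 in all 4 lists, with scores of 1859, 680, 566 and 150 in the order EA-HFSCs, LC-HFSCs, nEA-HFSCs and nLC-HFSCs, and the LC-HFSC peak stood above 94.7% of its list. Col5a1 and Col5a2 thus differed in LC-HFSCs and were both marked in EA-HFSCs. Both had H3K27me3 in the non-HFSC lists and in neither HFSC list, at scores of 263 and 72.5 for Col5a1 and 88.4 and 71.1 for Col5a2. Col5a3 had H3K4me3 (56.6) and H3K27me3 (110) at a start in nEA-HFSCs and no peak at a start in the other populations, while H3K27me3 peaks inside the gene covered 4573 bp in EA-HFSCs, 4002 bp in LC-HFSCs and 3555 bp in nLC-HFSCs.

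Among the fibrillar genes known from cartilage, Col2a1 lay under an H3K27me3 domain in every list, 18285 bp wide in EA-HFSCs (score 1334, 98.4% of the list lower), 10047 bp in LC-HFSCs (283, 99.0%), 18230 bp in nEA-HFSCs (2706, 99.8%) and 13737 bp in nLC-HFSCs (2048, 99.4%). In LC-HFSCs it was the peak of rank 20 among 1909. H3K4me3 at Col2a1 scored 903 in EA-HFSCs, 260 in nEA-HFSCs and 100.59 in nLC-HFSCs, with none in LC-HFSCs. Col11a1 had H3K27me3 in EA-HFSCs (115), nEA-HFSCs (111) and nLC-HFSCs (93.3), H3K9me3 in EA-HFSCs (45.6), and no H3K4me3 in any list. Col11a2 had H3K4me3 scores of 209 in EA-HFSCs, 50.8 in nEA-HFSCs and 71.3 in nLC-HFSCs, and H3K27me3 (66.5) in nEA-HFSCs only. The lowest H3K4me3 score of the nEA-HFSC list was 50.0. H3K4me3 peaks covered 666 bp of Col11a2 in EA-HFSCs, 0 bp in nEA-HFSCs and 8 bp in nLC-HFSCs. The nearest LC-HFSC peak of that mark was 5838 bp from its 5′ end, outside the window. Col24a1 and Col27a1 had H3K4me3 (135 and 343) and H3K27me3 (345 and 801) in EA-HFSCs and no peak of any mark at a start in LC-HFSCs, and both had H3K27me3 in the non-HFSC lists. Over the whole of Col27a1, H3K27me3 peaks covered 56.0% of the gene in EA-HFSCs and 4.59% in LC-HFSCs. Col24a1 had no H3K27me3 anywhere in the gene in LC-HFSCs.

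**Figure D3:**
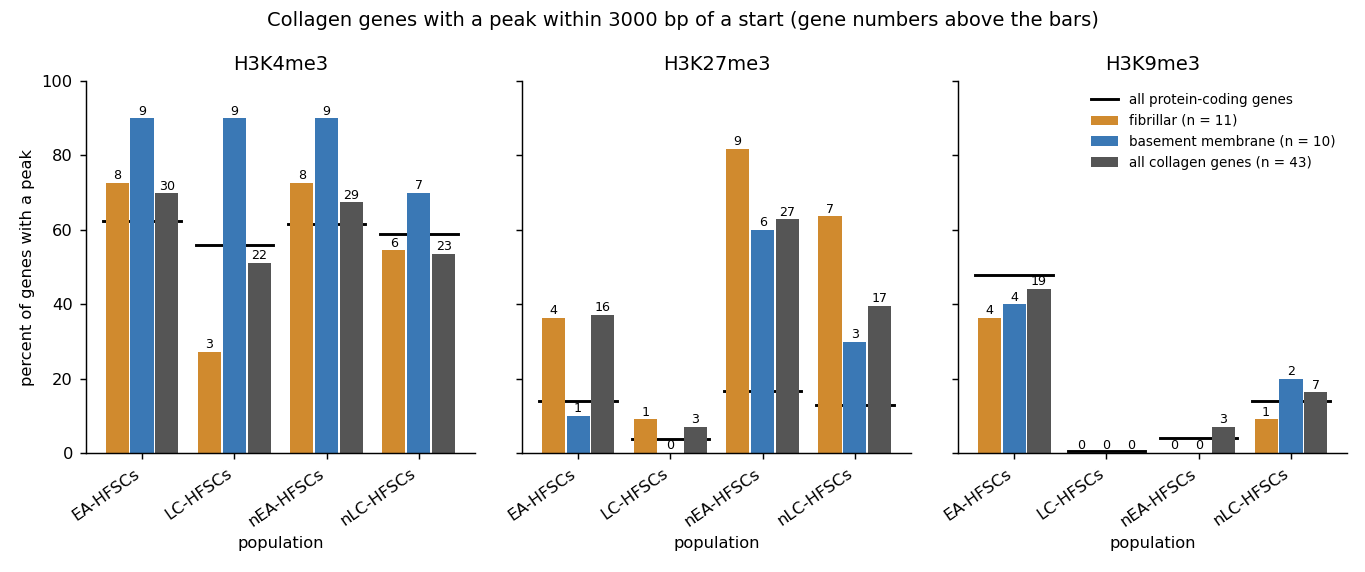
Percent of the 11 fibrillar, 10 basement membrane and all 43 collagen genes with a peak (bars, gene numbers above them) in each population and mark, with the percent of all protein-coding genes as black lines and no error bars, since there is 1 list each. For H3K4me3 in LC-HFSCs the bars stand at 3 fibrillar and 9 basement membrane genes.

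The comparison of EA-HFSCs with LC-HFSCs asked which marks were present in the proliferative and in the quiescent stage. Of the 30 collagen genes with H3K4me3 in EA-HFSCs, 22 also had it in LC-HFSCs (73.3%, against 89.3% of all genes), and 0 had it in LC-HFSCs alone (against 0.121%). The 22 included 9 of 9 basement membrane genes and 3 of 8 fibrillar ones. These basement membrane genes had EA-HFSC peaks with 59.0 to 96.8% of the list below them, with a median of 77.1%. For the fibrillar genes it was 26.1 to 89.2%, with a median of 50.7%. Whether the classes differed beyond these ranks was not tested. The 8 with a peak in EA-HFSCs only were Col5a1, Col2a1, Col27a1, Col13a1, Col9a2, Col11a2, Col24a1 and Col9a3, in falling order of their EA-HFSC scores from 2074 to 69.7. Their EA-HFSC peaks ranked lower than those of the 22, with a median of 38.3% of the list below them against 63.9%, and over all genes the medians were 31.1% and 74.6%. The 1 collagen gene whose EA-HFSC peak had under 25% of the list below it, Col9a3, had none in LC-HFSCs, against 11.7% of such genes with one. For peaks with 25 to 50% of the list below them, 4 of 9 collagen genes had an LC-HFSC peak, against 62.6% of all genes. For those with 50 to 75%, 9 of 10 did, against 97.8%, and the exception was Col2a1. For those with 75 to 100%, 9 of 10 did, against 99.5%, and the exception was Col5a1. With only the 14718 top-scoring peaks of each list, the length of the LC-HFSC list, the counts were 28 in EA-HFSCs (65.1%, against 58.3%) and 22 in LC-HFSCs, and of the 8 genes only Col9a3 and Col24a1 left the EA-HFSC count.

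Of the 16 collagen genes with H3K27me3 in EA-HFSCs, 3 also had it in LC-HFSCs (18.8%, against 26.1% of all genes), and 0 had it in LC-HFSCs alone (against 0.0671%). The 3 were Col2a1, Col9a2 and Col13a1. Col9a2, a type IX chain that decorates type II fibrils, had scores of 366 in EA-HFSCs, 68.2 in LC-HFSCs, 362 in nEA-HFSCs and 431 in nLC-HFSCs, with widths of 4132, 4019, 4482 and 4882 bp. Col13a1, a transmembrane collagen known from the neuromuscular junction, had the highest EA-HFSC score of a collagen gene, 1826 over 12042 bp (99.2% of the list lower), and scores of 59.0 in LC-HFSCs, 955 in nEA-HFSCs and 1186 in nLC-HFSCs. The LC-HFSC list held 1909 H3K27me3 peaks against 25534 in EA-HFSCs. With the 1909 top-scoring peaks of each list, the counts were 4 in EA-HFSCs (Col2a1, Col13a1, Col15a1, Col27a1), 3 in LC-HFSCs, 5 in nEA-HFSCs and 6 in nLC-HFSCs, against 5.07%, 3.73%, 6.15% and 5.21% of all genes. At equal list length the LC-HFSC count was therefore 1 below that of EA-HFSCs, and 2 genes (Col2a1 and Col13a1) were in both. Cutting the lists to the same length removes any difference in peak number, so these counts cannot show a loss over the whole genome.

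Both H3K4me3 and H3K27me3 stood at 9 collagen genes in EA-HFSCs (20.9%, against 8.89% of all genes), and in each the H3K4me3 and H3K27me3 peaks shared bases. In LC-HFSCs 0 had both (against 1.30%, and against 14.2% of all genes with both in EA-HFSCs). Of the 9, 4 had H3K4me3 alone in LC-HFSCs (44.4%, against 44.2% of all such genes), namely Col14a1, Col19a1, Col23a1 and Col25a1. Another 3 had H3K27me3 alone (33.3%, against 14.3%), namely Col2a1, Col9a2 and Col13a1, and 2 had neither (22.2%, against 27.2%), namely Col24a1 and Col27a1. The 7 with H3K27me3 alone in EA-HFSCs (Col6a3, Col6a4, Col6a5, Col6a6, Col9a1, Col11a1, Col15a1) all had neither mark in LC-HFSCs, as did 77.9% of all genes in that state. Of the 21 with H3K4me3 alone in EA-HFSCs, 18 had H3K4me3 alone in LC-HFSCs (85.7%, against 94.4%), and 3 (Col5a1, Col9a3 and Col11a2) had neither mark (14.3%, against 5.56%). A peak of each mark in a sorted population does not show that both sat on the same chromatin.

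Between the early anagen populations, H3K4me3 was shared by 28 of the 30 collagen genes with it in EA-HFSCs (against 96.5% of all genes), H3K27me3 by 15 of 16 (against 81.6%) and H3K9me3 by 2 of 19 (against 5.56%). H3K4me3 was in EA-HFSCs only at Col6a2 and Col24a1 (4.65%, against 2.19%) and in nEA-HFSCs only at Col5a3 (2.33%, against 1.43%). Of the 43 genes, 12 had H3K27me3 in nEA-HFSCs and not in EA-HFSCs (27.9%, against 5.36% of all genes), and Col23a1 alone had the reverse (2.33%, against 2.58%). The 12 were Col1a1, Col4a1, Col4a2, Col4a3, Col4a4, Col5a1, Col5a2, Col5a3, Col8a2, Col9a3, Col11a2 and Col18a1. All 12 also had H3K4me3 in nEA-HFSCs, and 11 of them had H3K4me3 alone in EA-HFSCs, which is 11 of the 21 collagen genes in that state (52.4%, against 6.74% of all genes with H3K4me3 alone in EA-HFSCs). The EA-HFSC list was the longer of the pair, with 25534 H3K27me3 peaks against 17488. The scores of the 12 genes' peaks were modest, from 40.1 to 263 with a median of 93.4, and 4 reached 100 (Col1a1, Col5a1, Col5a3 and Col8a2). Among the 1909 top-scoring peaks of each list, 0 of the 12 genes had H3K27me3 in nEA-HFSCs. The nearest EA-HFSC peak was 8631 to 1302898 bp from their 5′ ends. Collagen genes with both marks numbered 19 in nEA-HFSCs (44.2%, against 10.8%), with peaks that shared bases in all 19, and 11 in nLC-HFSCs (25.6%, against 6.60%), with shared bases in 8.

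Col1a1, Col4a1, Col4a2, Col5a1 and Col5a2 had H3K27me3 in both non-HFSC lists and neither HFSC list (11.6%, against 2.22% of all genes). Col4a1 and Col4a2 share their peaks and are not independent. In nLC-HFSCs the H3K27me3 peaks of Col1a1, Col4a1 and Col4a2 shared no bases with their H3K4me3 peaks. With 500 bp of overlap required, H3K27me3 was at 14 collagen genes in nLC-HFSCs, not 17. Among the 5 genes of the bulge list, 4 (Cd34, Lhx2, Sox9 and Lgr5) had H3K27me3 in both non-HFSC lists and neither HFSC list too. For H3K4me3, Col6a2 was the collagen gene with peaks in both HFSC lists (927 in EA-HFSCs, 221 in LC-HFSCs) and neither non-HFSC list (2.33%, against 0.232%), and 0 had the reverse (against 0.447%). From nEA-HFSCs to nLC-HFSCs, H3K4me3 was shared by 23 of 29 collagen genes (79.3%, against 94.6%) and H3K27me3 by 17 of 27 (63.0%, against 71.2%). The 6 with H3K4me3 in nEA-HFSCs only were Col1a2, Col4a3, Col4a4, Col5a3, Col9a2 and Col9a3, each with at most 38.5% of the list below its peak. H3K4me3 and H3K27me3 were each in nLC-HFSCs and not nEA-HFSCs at 0 collagen genes (against 0.411% and 0.966%). Between the late catagen populations, H3K4me3 was shared by 18 of the 22 genes with it in LC-HFSCs (against 98.6%) and H3K27me3 by 3 of 3 (against 98.4%). Col1a2, Col4a3, Col4a4 and Col6a2 had H3K4me3 in LC-HFSCs alone of this pair (9.30%, against 0.809%), and Col2a1, Col5a1, Col11a2, Col13a1 and Col27a1 in nLC-HFSCs alone (11.6%, against 3.69%).

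The type VI genes divided by chain. Type VI collagen forms beaded filaments near basement membranes, from the chains of Col6a1, Col6a2 and Col6a3, with Col6a4, Col6a5 and Col6a6 as alternatives to the last. Col6a1 and Col6a2 had H3K4me3 and no H3K27me3: Col6a1 scored 1169 in EA-HFSCs, 214 in LC-HFSCs, 118 in nEA-HFSCs and 77.2 in nLC-HFSCs. The 4 other genes had H3K27me3 in EA-HFSCs and nEA-HFSCs, against 14.0% and 16.8% of all genes. None of the 4 had it in LC-HFSCs, against 26.1% of all genes with it in EA-HFSCs. They had no H3K4me3 in any list, as did 35.9% of all genes. Col6a4, Col6a5 and Col6a6 lie on chromosome 9 with 5′ ends 132559 to 268699 bp apart, and share no peak. At Col6a3 the 5 H3K27me3 peaks of EA-HFSCs, with scores up to 298, lay 16297 to 73585 bp into the gene, at internal starts, and not at its 5′ end. Col6a6 had a peak over its 5′ end in EA-HFSCs (120) and nEA-HFSCs (54.9).

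Of the FACIT genes, Col12a1, whose product binds type I fibrils, had broad H3K4me3 of 6506 bp in EA-HFSCs (score 2659, 94.7% of the list lower) and 6239 bp in LC-HFSCs (827, 97.4%), scores of 1834 and 1055 in nEA-HFSCs and nLC-HFSCs, and no H3K27me3. Its LC-HFSC score was the highest of H3K4me3 at a collagen gene in that list. Col14a1, which encodes a related fibril-binding collagen, had H3K4me3 scores from 72.8 to 225 and H3K27me3 scores of 52.1 in EA-HFSCs, 954 in nEA-HFSCs and 813 in nLC-HFSCs, which stood above 29.1%, 96.6% and 96.1% of their lists. Col8a2 and Col8a1, the short-chain collagens of endothelial and corneal membranes, had H3K4me3 in all 4 lists, at 1838 and 517 in EA-HFSCs and 500 and 126 in LC-HFSCs.

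H3K9me3 at collagen starts was most frequent in EA-HFSCs, as it was at all genes, and each share was near the background given above. The 19 genes there had narrow peaks, with a median width of 868 bp against 1279 bp over all genes with one, and Col13a1 had the highest score (322), followed by Col2a1 (254). None of the 19 had a peak in LC-HFSCs (against 0.765% of all genes with one in EA-HFSCs), and 0 had one in LC-HFSCs alone (against 0.139%). Of the 19, 13 also had H3K4me3 in EA-HFSCs, against 90.2% of all genes with H3K9me3 there, 13 had H3K27me3, against 21.1%, and 7 had all 3 marks, against 15.1% (Col2a1, Col9a2, Col13a1, Col14a1, Col23a1, Col25a1 and Col27a1). The nEA-HFSC list marked Col9a1, Col13a1 and Col28a1, and Col28a1 had the highest score there, 367 over 4274 bp. H3K9me3 was in EA-HFSCs and not nEA-HFSCs at 17 collagen genes (39.5%, against 45.3%), and in nEA-HFSCs and not EA-HFSCs at Col28a1 alone (2.33%, against 1.48%). In nLC-HFSCs it was at 2 of the 3 nEA-HFSC genes (against 44.3%) and at 5 others (11.6%, against 12.3%), which were Col2a1, Col14a1, Col15a1, Col18a1 and Col19a1. Col28a1 was the collagen gene with H3K9me3 in both non-HFSC lists and neither HFSC list (2.33%, against 0.367%). With the 1414 top-scoring peaks of each list, the counts were 2, 0, 1 and 0 in EA-HFSCs, LC-HFSCs, nEA-HFSCs and nLC-HFSCs, against 3.48%, 0.505%, 0.671% and 1.28% of all genes.

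The median CpG ratio at the 5′ ends was lower for collagen genes with H3K4me3 in fewer lists, as a description across genes that are not replicates. The 18 collagen genes with H3K4me3 in all 4 populations had a median CpG ratio of 0.51, against 0.73 for the 12281 genes of any kind in that state, and ranged from 0.22 (Col6a1) to 0.87 (Col23a1). The 13 with H3K4me3 in some lists had a median of 0.45 (against 0.49), the 7 with H3K27me3 and no H3K4me3 had 0.29 (against 0.31), and the 5 with neither mark in any list had 0.18 (against 0.17). Collagen genes marked in all 4 populations thus had a lower median CpG ratio than other genes in that state, with Col17a1, Col1a1, Col4a6 and Col5a2 between 0.27 and 0.33. The 8 genes with H3K4me3 in EA-HFSCs and not LC-HFSCs had a median ratio of 0.54, and the 22 with both had 0.46, against 0.54 and 0.73 over all genes. Genes with H3K4me3 in both HFSC lists thus had the lower median among collagen genes and the higher median over all genes.

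**Figure D4:**
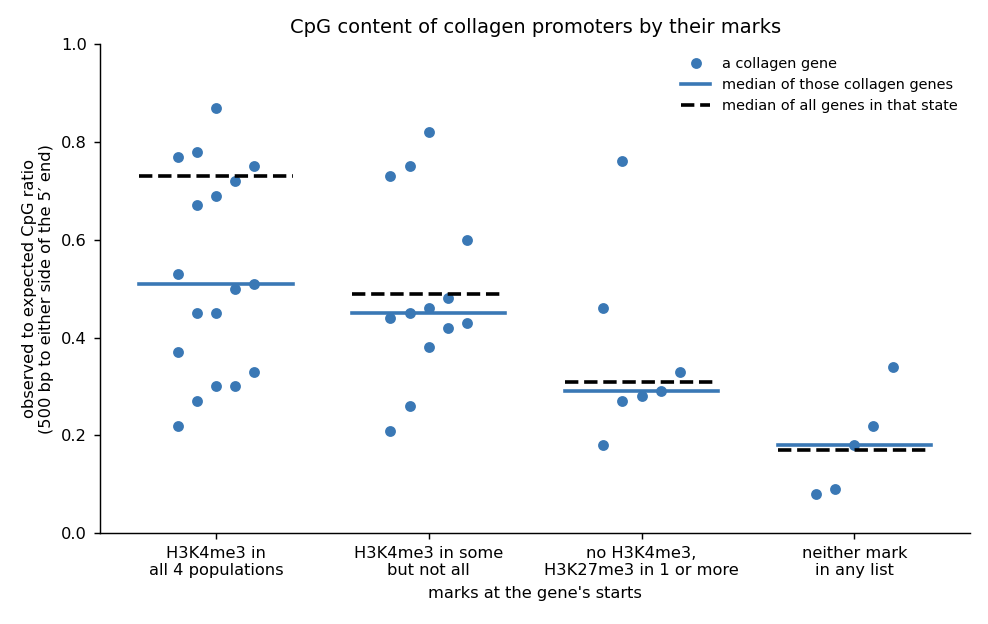
Observed to expected CpG ratio within 500 bp of the 5′ end of each collagen gene (points), grouped by the marks at its starts, with the median of those collagen genes (solid line) and of all protein-coding genes in that state (dashed line). The collagen medians are 0.51, 0.45, 0.29 and 0.18 from left to right, against 0.73, 0.49, 0.31 and 0.17.

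The genes that make or process collagen were mostly marked by H3K4me3. Of 28 matched genes of a list of 29, 26 had H3K4me3 in EA-HFSCs (92.9%), 21 in LC-HFSCs, 26 in nEA-HFSCs (92.9%) and 25 in nLC-HFSCs (89.3%), against 62.4%, 55.9%, 61.7% and 58.8% of all genes. H3K27me3 was at 8, 2, 11 and 11 in the same order, against 14.0%, 3.73%, 16.8% and 12.9%. H3K9me3 was at 20, 0, 2 and 4, against 47.9%, 0.505%, 4.14% and 14.1%. The prolyl and lysyl hydroxylase genes P4ha1, P4ha2, P4hb, Plod1, Plod2 and Plod3 and the chaperone gene Serpinh1 had H3K4me3 in every list. Of the 26 with H3K4me3 in EA-HFSCs, 20 also had it in LC-HFSCs, against 89.3% of all genes. The 6 with H3K4me3 in EA-HFSCs and not LC-HFSCs were P4ha3 and Leprel2 (hydroxylases), Glt25d2 (a galactosyltransferase), Adamts14 and Tll2 (propeptide proteases) and Lox (lysyl oxidase, which crosslinks fibrils). Lox had H3K4me3 in EA-HFSCs only and H3K27me3 in all 4 lists. Pcolce, which enhances cleavage of type I procollagen, had H3K4me3 in LC-HFSCs only. Of all genes, 0.121% had H3K4me3 in LC-HFSCs and not EA-HFSCs.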

How the data were processed

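Processing of the reads and the peak calling were the authors': single-end reads were trimmed (Trimmomatic 0.22 per the submitters' processing notes), aligned to mm9 with Bowtie2, pooled over replicate pools of mice, and peaks were called with MACS 1.4 against IgG of the same population, at p-values of 1e-05 (H3K4me3) and 0.0001 (H3K27me3 and H3K9me3). The deposited lists give position and score, and the score is the authors' value from MACS, the negative log10 of a peak's p-value multiplied by 10. Differences in depth and background change how many peaks pass a threshold, and the lists cannot correct for it. The labels name antibodies of 2 suppliers for H3K9me3 in all 4 populations.

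Genes and sequence came from GENCODE vM1 and NCBIM37, the assembly of mm9, and the last peak on each chromosome lay within its length. A peak sharing at least 1 bp with a window of 3000 bp to either side of any transcript start marked a gene. Positions are 1-based. Python 3.11.15, numpy 2.4.6 and matplotlib 3.10.9 were used. The matching was tested on simulated data, where 200 of 200 assignments were right, and gave the gene counts of bedtools 2.31.1 in 12 of 12 lists. Motif and CpG counts used the same genome sequence. Collagen classes, the genes named and the other lists were chosen with earlier results of these data known. All basement membrane and fibrillar genes were described, with the highest-scoring EA-HFSC gene of each mark and the genes whose H3K4me3 differed between the HFSC lists or between HFSCs and non-HFSCs, or that had H3K27me3 in LC-HFSCs. Other genes named stand beside a count or were chosen after their values were seen. Alternatives were a window of 1000 bp, the annotated 5′ end alone, a score of at least 100, equal numbers of top-scoring peaks, 500 bp of overlap and genes with starts within 1000 bp counted as 1. Leaving out peaks over starts of other genes, which kept the peaks shared by Col4a1 and Col4a2, was added after seeing the data.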

Additional observations from a re-analysis of the deposited data

Results flagged for a closer look

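The number of collagen genes with H3K9me3 at a start went opposite ways from early anagen to late catagen, from 19 in EA-HFSCs to 0 in LC-HFSCs and from 3 in nEA-HFSCs to 7 in nLC-HFSCs, and this difference was not tested. The shares of all genes went the same ways, from 47.9% to 0.505% and from 4.14% to 14.1%. The non-HFSC counts were 1 and 0 with equal numbers of top-scoring peaks or a score of at least 100, and 2 and 2 at the annotated 5′ end alone. Col2a1, Col14a1 and Col15a1 each had H3K9me3 in EA-HFSCs and not LC-HFSCs, and in nLC-HFSCs and not nEA-HFSCs. Their nLC-HFSC scores were 66.1 for Col2a1, 42.1 for Col14a1 and 43.6 for Col15a1, and the peaks lay 3104 bp, 140812 bp and 95722 bp into the gene, at internal starts rather than the 5′ end. None of these differences was tested, since there is 1 list per population.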

How the results depend on the processing

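Of 133 values from 19 counts under 7 settings, 111 stayed within 1.5 times the reported count and 22 moved further, all downwards. The settings can only lower a count, so counts reported as 0 were bound to stay and are among the 111. Of the 19 counts, 10 moved with equal numbers of top-scoring peaks and 9 with a score of at least 100. With equal numbers of top-scoring peaks, H3K4me3 was at 19 collagen genes in nEA-HFSCs, H3K27me3 at 4 in EA-HFSCs, 5 in nEA-HFSCs and 6 in nLC-HFSCs, H3K9me3 at 2, 1 and 0, and both H3K4me3 and H3K27me3 at 3, 3 and 2 in the same lists. With a score of at least 100, H3K27me3 was at 1 in LC-HFSCs, 16 in nEA-HFSCs and 10 in nLC-HFSCs, 1 gene had it in both HFSC lists, H3K9me3 was at 5, 1 and 0 in EA-HFSCs, nEA-HFSCs and nLC-HFSCs, and both marks were at 10 in nEA-HFSCs and 5 in nLC-HFSCs. Within 1000 bp, H3K9me3 was at 1 in nEA-HFSCs and 4 in nLC-HFSCs, and at the annotated 5′ end alone at 2 in nLC-HFSCs. These follow from fewer peaks or starts being used. No count moved beyond 1.5 times with 500 bp of overlap or paired starts counted as 1. Leaving out peaks over other genes' starts left all 19 counts equal. The H3K4me3 count of 30 in EA-HFSCs stayed although 1 peak covers the starts of both Col4a1 and Col4a2. Peaks shared by these genes were therefore not left out, and the setting is no check on them. No paired analysis was possible because replicates were pooled into 1 list. A missing peak is a region that did not pass the threshold, and per the study the short LC-HFSC lists came from more reads than the EA-HFSC lists. Per the study too, reads were too few to saturate peak detection for H3K27me3 and H3K9me3, which led it to pool replicates. A missing peak of H3K27me3 or H3K9me3 therefore does not show that the mark was absent.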

Other observations

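Over whole gene bodies, H3K27me3 peaks covered 3.86% of the summed length of the collagen genes in EA-HFSCs, 0.423% in LC-HFSCs, 4.26% in nEA-HFSCs and 1.73% in nLC-HFSCs, and between 0.332% (LC-HFSCs) and 2.77% (nEA-HFSCs) over all protein-coding genes. H3K4me3 peaks covered 1.69% in EA-HFSCs, 1.04% in LC-HFSCs, 1.37% in nEA-HFSCs and 0.894% in nLC-HFSCs, against 3.77%, 2.58%, 3.27% and 2.54% over all genes. The summed length was 5168499 bp for the 43 collagen genes and 1016745822 bp for all 22367 genes. Genes with any H3K4me3 cover were 69.8%, 51.2%, 67.4% and 53.5% of collagen genes, against 63.1%, 56.0%, 62.2% and 59.1% of all genes. Peaks of H3K9me3 away from any start lay in 20 collagen genes in EA-HFSCs, 1 in LC-HFSCs, 14 in nEA-HFSCs and 15 in nLC-HFSCs (46.5%, 2.33%, 32.6% and 34.9%, against 17.0%, 1.15%, 11.6% and 13.7% of all genes). Per Mb of gene these peaks numbered 10.6, 0.193, 4.06 and 4.26 in collagen genes, against 9.52, 0.388, 4.83 and 5.30 over all genes. The number per Mb was thus above that of all genes in EA-HFSCs and below it in the other lists.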
